A study of Mus musculus with 6 samples.

Results

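The MAPK feedback genes examined here are 10 named genes of the deposited table: Dusp4, Dusp5, Dusp6, Spry1, Spry2, Spry4, Spred1, Etv4, Etv5 and Phlda1. They were chosen by name as reporters of ERK output, all 10 were present among the 19739 genes of the table, and all 10 passed the filter on low values. RNA had been sequenced from wild-type mouse mammary epithelial cells, flow-sorted as luminal cells, the inner epithelial layer of the mammary duct. Of the 6 libraries, 3 came from cells given EFNA3 (ephrin-A3) protein at 1 µg/ml for 24 hours and 3 from control cells at 0 µg/ml, all after 12 hours without serum. The growth medium of both groups held 2 ligands of this pathway, 10 ng/ml EGF and 20 ng/ml FGF2, beside 4 µg/ml heparin, 5% FBS and 5 µM Y-27632, a ROCK inhibitor. During the 24 hours the medium was serum-free, and the labels do not say whether EGF and FGF2 were in it. They give neither the age nor the number of the mice, and do not say whether replicates were separate cultures or animals, so p-values measure the spread between these libraries, which may be technical.

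Growth factor receptors signal through Ras, Raf and MEK to the kinase ERK, which enters the nucleus and switches on genes that include inhibitors of its own pathway. These feedback genes follow the activity of ERK and are widely read as its output. In many epithelial cells, EphA receptors bound by ephrin-A ligands are known to dampen Ras and ERK signalling, and the mammary epithelium depends on EGF and FGF receptors for growth.

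Promoter windows from RefSeq on the build GRCm38.p6, 250 bases before to 50 after a start site, were found for 6 of the 10 genes. Those of Dusp5, Dusp6 and Spry2 are shown as examples that each hold a match to a motif of an ERK-regulated factor. Dusp6 and Spry2 also had the closest profiles among the 10 genes over all 6 libraries, but not without EFNA3 replicate 1. A link between motifs and profiles was not tested. The authors' table is on mm39, so these positions do not apply to it. Capitals mark matches, on either strand, to the CArG box of serum response factor or to the ETS-type motifs CCGGAA and AGGAAG.
Dusp5, chr19:53528895-53529194, plus strand: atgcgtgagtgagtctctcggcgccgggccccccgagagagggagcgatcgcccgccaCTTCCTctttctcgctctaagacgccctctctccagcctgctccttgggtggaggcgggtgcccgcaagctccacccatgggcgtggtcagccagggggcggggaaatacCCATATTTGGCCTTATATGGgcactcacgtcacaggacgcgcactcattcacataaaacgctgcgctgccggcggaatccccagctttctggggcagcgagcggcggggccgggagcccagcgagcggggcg
Dusp6, chr10:99262981-99263280, plus strand: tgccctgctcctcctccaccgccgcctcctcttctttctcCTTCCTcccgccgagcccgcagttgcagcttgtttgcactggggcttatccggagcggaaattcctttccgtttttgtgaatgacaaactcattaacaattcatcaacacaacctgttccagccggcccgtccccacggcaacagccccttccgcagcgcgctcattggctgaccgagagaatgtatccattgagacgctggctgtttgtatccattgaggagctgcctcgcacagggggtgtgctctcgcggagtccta
Spry2, chr14:105896770-105897069, minus strand: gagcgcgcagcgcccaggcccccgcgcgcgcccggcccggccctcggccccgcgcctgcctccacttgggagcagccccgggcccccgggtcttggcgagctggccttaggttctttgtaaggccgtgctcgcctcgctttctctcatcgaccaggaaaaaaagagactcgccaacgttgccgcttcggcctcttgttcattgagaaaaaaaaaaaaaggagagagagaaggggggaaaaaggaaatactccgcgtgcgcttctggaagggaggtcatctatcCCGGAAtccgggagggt
The Dusp5 window held 2 adjoining CArG boxes at -82 to -73 and -72 to -63 from the start site, and AGGAAG on the opposite strand at -192 to -187. AGGAAG also lay on the opposite strand at -210 to -205 in Dusp6, and CCGGAA at 34 to 39 in Spry2. Of the windows not shown, 1 of 2 at Etv5 held AGGAAG at 2 to 7, and those of Spry1 and Spred1 held no match. Of 32851 windows of the same length, 1.63% held a CArG box, 14.9% CCGGAA and 35.4% AGGAAG. The cAMP response element TGACGTCA, the AP-1 motif TGANTCA and the Capicua octamers TGAATGAA and TGAATGGA were also searched on both strands, and none of the windows of these 6 genes held any of them. In all windows their shares were 1.79%, 7.81%, 1.30% and 1.21%. These matches are letters in a window, not sites shown to be bound.

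No common direction was seen among the 10 genes in cells given EFNA3: 4 had a higher and 6 a lower mean, with a median difference of -0.0063 on the log2 scale, beside 0.0038 over all 16394 genes tested. Etv4 stood 1.30-fold above control and Dusp4 at 0.802 of control, and in these 2 genes the EFNA3 and control libraries did not overlap. None of the 10 passed limma with Benjamini-Hochberg adjustment over all genes, and neither did any other gene (0% called; smallest adjusted p = 0.55). At an unadjusted limma p under 0.05 there were 2 of the 10, Etv4 and Dusp4, and 1104 of all genes (6.73%). Etv4 was the 1 higher gene, where 3.87% of all genes were called, and Dusp4 the 1 lower, where 2.86% were. Etv4 alone was left without control replicate 1, without control replicate 2 and with no variance trend, and Dusp4 alone when the description numbers served as replicate block. No overlap was seen in 16.0% of all genes, so 2 of 10 is a share near that background. Without EFNA3 replicate 3 the count was 5 of 10, where 33.8% of all genes had no overlap, and after a correction for transcript length and GC it was 1, Etv4. The deposited values are on a log2 scale brought by the authors to 1 common distribution, so a shift of all genes at once cannot be seen, and the number of reads behind a value is unknown. In bulk RNA, fewer cells expressing a gene and less RNA per cell cannot be told apart.

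**Figure D1:**
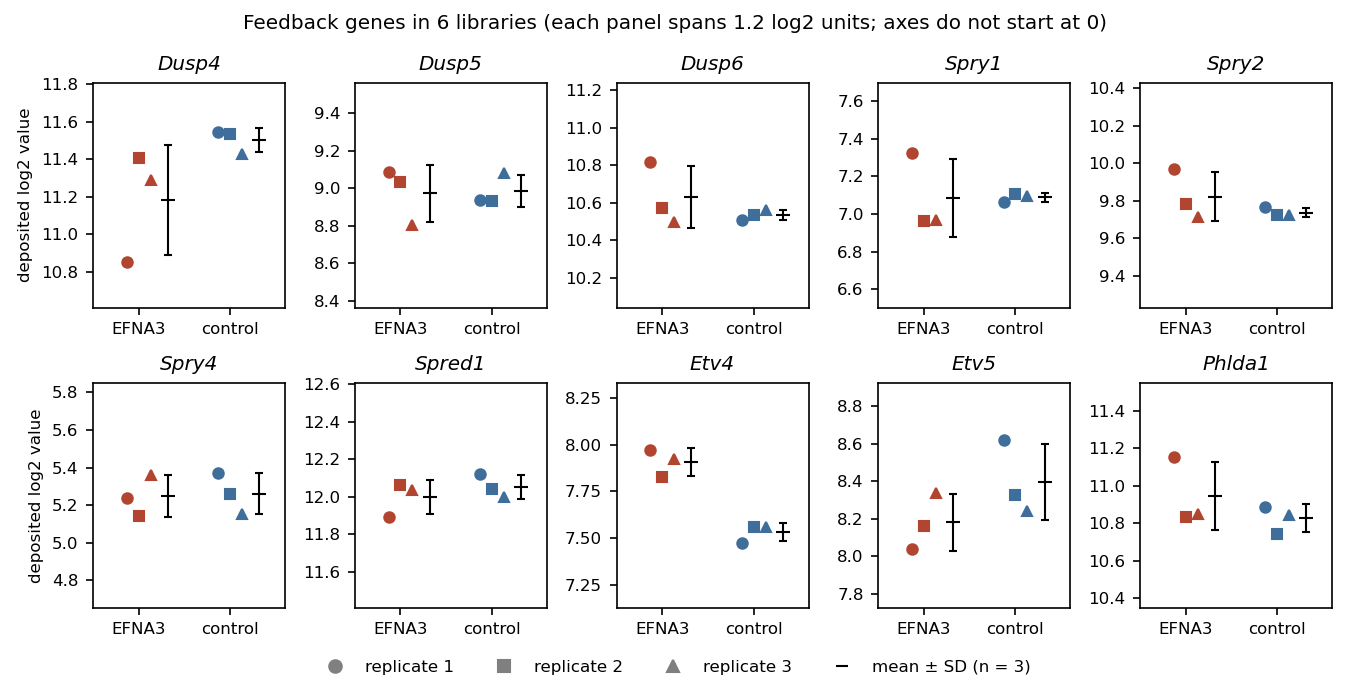
Deposited log2 values of the 10 genes, 1 panel per gene, with EFNA3 libraries left and control libraries right; symbols mark replicates and black bars the mean ± SD (n = 3). The groups are apart in Etv4 and, by 0.019, in Dusp4, and EFNA3 replicate 1 is the highest or lowest of the 6 libraries in 9 of the 10 panels.

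EFNA3 replicate 1 lay furthest from the other libraries in the table as a whole. The median gene departed from its own 6-library mean by 0.217 in that library and by 0.0676 to 0.117 in the other 5. It was the highest or lowest library for 68.4% of all genes tested, and for 9 of the 10 feedback genes. Differences are therefore also given without it. Luminal markers were abundant in every library, with Epcam highest at 14.74 ± 0.14 in EFNA3 and 14.57 ± 0.05 in control libraries (log2, SD, n = 3). The basal keratin Krt14 stood at 16.38 ± 0.05 and 16.26 ± 0.08 in the same groups, and other basal genes were also high: Krt5 averaged 14.94 and 14.92, Oxtr 13.31 and 13.44, and Trp63 11.74 and 11.79. Of the contractile basal genes, Acta2 averaged 7.84 and 7.77 and Tagln 4.67 and 5.20, and Myh11, the lowest, 1.94 over all libraries. The linear values of the 7 luminal markers summed to between 79800 and 94510 in EFNA3 and between 75700 and 80880 in control libraries, and those of the 7 basal markers to 128900 to 135000 and 121300 to 129200. Sums over 5 fibroblast markers were 1588 to 1761 in EFNA3 and 1721 to 1773 in control libraries. The most abundant of them, Pdgfra, stood at 10.07 ± 0.18 and 10.29 ± 0.08 in these groups, while the other 4, Col1a1, Col1a2, Col3a1 and Dcn, had higher means with EFNA3, and the median difference of the 5 was 0.29. Sums over 5 endothelial and immune markers were 471.6 to 521.8 in EFNA3 and 473.5 to 550.4 in control libraries. The part of these markers in any result was not tested.

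Dusp4, Dusp5 and Dusp6 encode dual-specificity phosphatases that remove the activating phosphates of ERK, Dusp4 and Dusp5 in the nucleus and Dusp6 in the cytoplasm. Dusp4 had values of 10.85, 11.41 and 11.29 in EFNA3 replicates 1, 2 and 3 and of 11.55, 11.53 and 11.43 in control replicates 1, 2 and 3 (log2). All EFNA3 libraries were below all controls, but the nearest of them by only 0.019, and EFNA3 replicate 1 was far below the others. The difference was -0.32 (SE 0.13, 95% interval -0.62 to -0.02; limma, unadjusted p = 0.038, adjusted p = 0.55). Without EFNA3 replicate 1 it was -0.15 (unadjusted p = 0.026, adjusted p = 0.99), and with library weights, which count that library less, -0.17. The unadjusted p was 0.10 without control replicate 1 and 0.096 without control replicate 2, and with no variance trend it was 0.089, with an interval of -0.70 to 0.07. After transcript length and GC share were regressed out, the difference was -0.35, but the groups overlapped.

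Dusp6, a phosphatase selective for ERK, had values of 10.82, 10.57 and 10.50 in EFNA3 replicates 1 to 3 and of 10.51, 10.53 and 10.56 in the controls. EFNA3 replicate 1 stood clear of the others, EFNA3 replicate 2 lay just above the highest control, and EFNA3 replicate 3 was below every control. The difference was 0.10 (SE 0.09, interval -0.11 to 0.30, or 0.925- to 1.23-fold), and without EFNA3 replicate 1 it was 0.0017. Dusp5 had values of 9.09, 9.03 and 8.80 with EFNA3 and of 8.94, 8.93 and 9.08 without. These groups interleaved, and the difference was -0.0094 (SE 0.10, interval -0.25 to 0.23), or -0.07 without EFNA3 replicate 1.

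Sprouty and Spred proteins are membrane-associated inhibitors that block growth factor signalling at the level of Ras and Raf. Spry2 had values of 9.97, 9.78 and 9.72 in EFNA3 libraries and 9.77, 9.72 and 9.72 in controls. EFNA3 replicate 1 was again the high library, and the difference of 0.09 (SE 0.09, interval -0.11 to 0.28) was 0.012 without it. For Spry1 the values were 7.32, 6.96 and 6.97 with EFNA3 and 7.06, 7.11 and 7.09 in control libraries. Here EFNA3 replicate 1 lay above all controls and the other EFNA3 libraries below all of them, so the difference was -0.0031 (SE 0.15, interval -0.33 to 0.33) with all libraries and -0.12 without EFNA3 replicate 1. In Spry4 the values were 5.24, 5.14 and 5.36 in EFNA3 and 5.37, 5.26 and 5.15 in control libraries. Its groups covered the same range, with a difference of -0.01 (SE 0.21) and the widest interval, -0.48 to 0.46. Spred1, which holds the Ras inhibitor neurofibromin at the membrane, had values of 11.89, 12.06 and 12.04 in EFNA3 libraries and 12.12, 12.04 and 12.00 in controls. Its difference of -0.055 (SE 0.07) had the narrowest interval, -0.22 to 0.11, or 0.857- to 1.08-fold; it was -0.0029 without EFNA3 replicate 1 and 0.07 after the length and GC correction.

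Etv4 and Etv5 encode ETS transcription factors of the PEA3 family, which ERK and FGF signalling induce and which act in mammary branching. Etv4 had values of 7.97, 7.83 and 7.92 in EFNA3 replicates 1 to 3 and of 7.48, 7.56 and 7.56 in control replicates 1 to 3. The groups were 0.27 apart at their nearest libraries, and EFNA3 replicate 1 did not stand out. The difference was 0.37 (SE 0.11, interval 0.13 to 0.62, or 1.09- to 1.54-fold; limma, unadjusted p = 0.0078, adjusted p = 0.55). By unadjusted p Etv4 was number 69 of the 16394 genes. Leaving out any 1 library gave between 0.34 and 0.41, and the other settings between 0.32 and 0.43, with adjusted p between 0.33 and 0.99 over all settings. With the description numbers as replicate block the limma interval, -0.05 to 0.91, included no difference (unadjusted p = 0.082). Genes within 1.2-fold of its transcript length had a median difference of 0.06. The same median was 0.09 for Phlda1, 0.08 for Spry2, 0.06 for Dusp5, 0.04 for Dusp4 and 0.03 for Dusp6 and Spry1. For genes with longer transcripts it was -0.02 for Etv5, -0.06 for Spry4 and -0.12 for Spred1.

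Etv5 had values of 8.04, 8.16 and 8.34 with EFNA3 and of 8.62, 8.33 and 8.24 in control libraries. Its mean was lower with EFNA3, but the groups overlapped, since EFNA3 replicate 3 lay above control replicates 2 and 3. The difference was -0.22 (SE 0.13, interval -0.52 to 0.09) and -0.14 without EFNA3 replicate 1. The log2 ratio of Etv4 to Etv5 was -0.07, -0.34 and -0.42 in EFNA3 libraries and -1.14, -0.77 and -0.68 in controls. All 3 EFNA3 libraries had the higher ratio, by 0.59 on average and by 0.49 without EFNA3 replicate 1; this pair was chosen after its values were seen and was not tested.

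Phlda1 encodes a pleckstrin-homology domain protein that ERK signalling induces. Its values were 11.15, 10.83 and 10.85 in EFNA3 libraries and 10.89, 10.75 and 10.85 in controls. Only EFNA3 replicate 1 was above all controls, and the difference of 0.12 (SE 0.10, interval -0.10 to 0.34) was 0.015 without it.

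**Figure D2:**
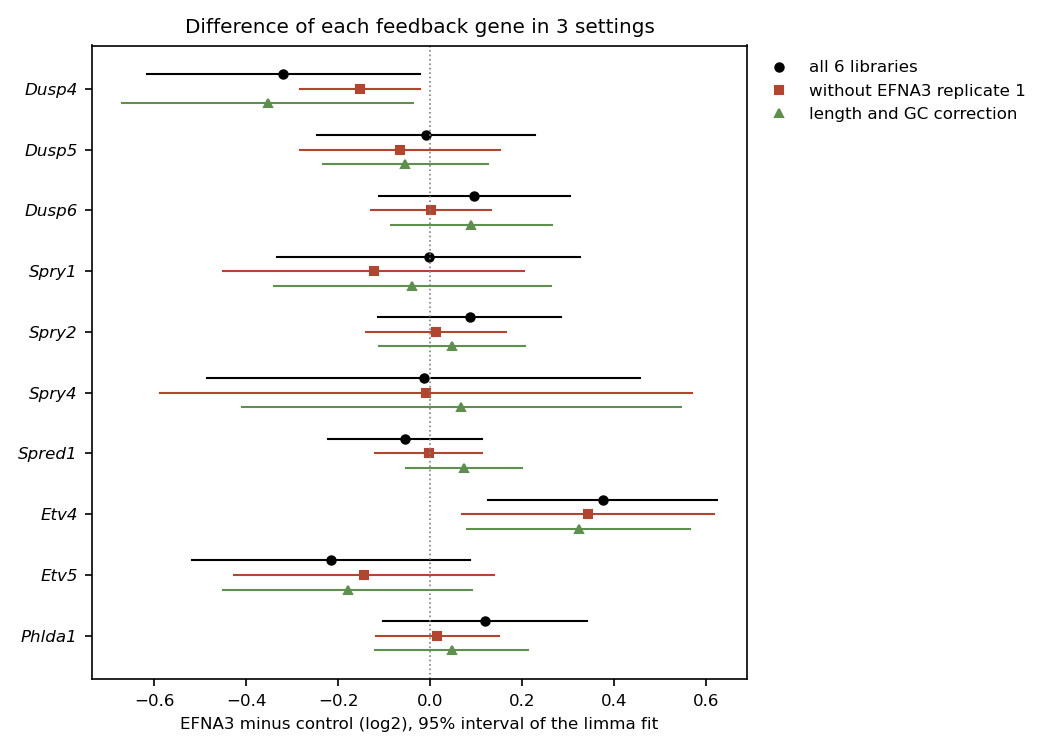
EFNA3 minus control on the log2 scale for each gene (points) with the unadjusted 95% interval of the limma fit (lines), for all 6 libraries, without EFNA3 replicate 1 and after the length and GC correction. With all libraries 8 of the 10 intervals include no difference, Etv4 lies above it and Dusp4 below it; without EFNA3 replicate 1 the points of Dusp6, Spry2 and Phlda1 move to between 0.0017 and 0.015.

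With all libraries, 8 of the 10 unadjusted intervals included no difference, as did 93.3% of all genes tested. The bounds furthest from no change among the 10 were 0.652-fold for Dusp4 and 1.54-fold for Etv4. With 3 libraries in each group, the smallest two-sided p of an exact permutation test is 0.1, and none was run.

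Profiles over the 6 libraries were compared after each gene was centred on its mean and divided by its SD. Dusp6 and Spry2 were closest, with a root mean square difference of 0.264 SD, followed by Spry2 and Phlda1 at 0.333 and Dusp6 and Phlda1 at 0.421. These 3 genes had their highest value in EFNA3 replicate 1. Dusp4 and Spred1 differed by 0.450 SD and Spred1 and Etv5 by 0.527 SD, and these 3 had their lowest value in that library. Dusp4 and Phlda1 were among the least alike, at 1.78 SD. Without EFNA3 replicate 1, the differences were 0.992 SD for Dusp6 and Spry2, 1.03 for Spry2 and Phlda1 and 1.40 for Dusp6 and Phlda1. For Dusp4 and Spred1 the difference was then 0.928, so the closeness of these pairs rested on that library. Spred1 and Etv5 changed less, to 0.647 SD without it. The closest pair was then Dusp5 and Dusp6, at 0.413 SD. With all 6 libraries, of 8018 other genes whose linear value averaged 50 or more and whose SD was 0.1 or more, 3.01% were closer to Dusp6 than Spry2 was, led by Khdrbs3 at 0.078 SD, Aga at 0.081, Rnaseh2b at 0.102, Ldhb at 0.109 and Tcea1 at 0.110. For Etv5 the closest were Tc2n at 0.147 SD, Nlk at 0.172, Tmem67 at 0.224, Adcyap1r1 at 0.225 and Car5b at 0.230, and 4.84% were closer than Spred1 was. The closeness of other genes to Dusp6 and Etv5 was not computed without EFNA3 replicate 1.

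Levels were compared between genes as the log2 value less the log2 of transcript length in kb, using the longest annotated transcript, which may not be the one these cells use. On that scale Phlda1 averaged 9.92 over the 6 libraries and Dusp4 9.89, followed by Spred1 at 9.44, Dusp6 at 9.10, Spry2 at 8.72 and Dusp5 at 7.67. Etv4 averaged 6.46, Etv5 6.30, Spry1 5.62 and Spry4 3.00. The ranges of Phlda1 and Dusp4, Dusp4 and Spred1, Spred1 and Dusp6, and Etv4 and Etv5 overlapped. Compared within each library, Dusp4 was above Spred1 in all 6 libraries. In the other overlapping pairs the order differed between libraries. The other neighbours in the order did not overlap.

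**Figure D3:**
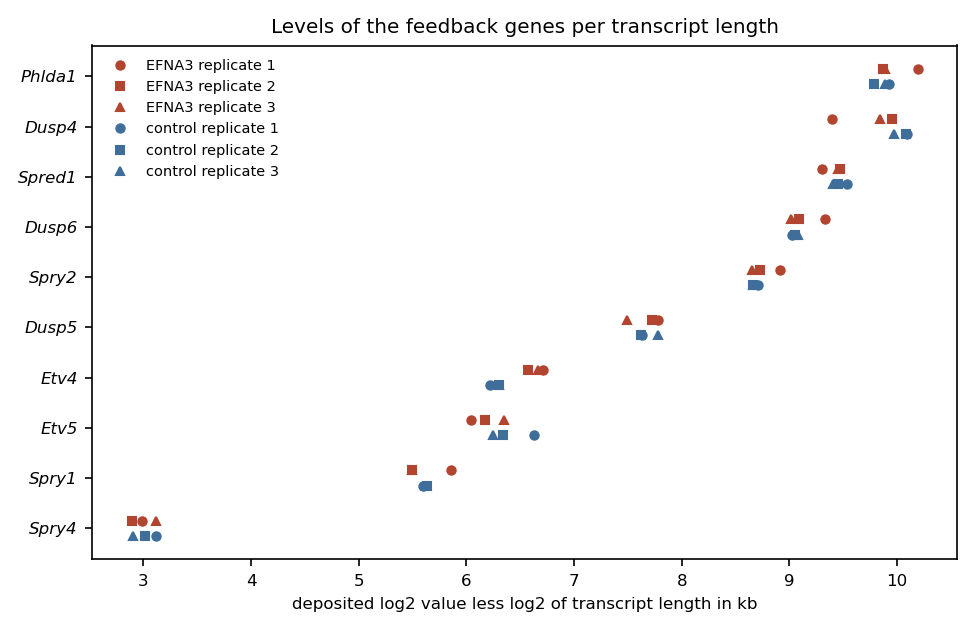
Log2 value less log2 transcript length in kb for each gene and library, ordered by the mean over the 6 libraries, with EFNA3 libraries above controls in each row. Sprouty genes cover most of the range, with Spry2 at 8.72, Spry1 at 5.62 and Spry4 at 3.00 on average.

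The rest of the pathway was read from 7 lists of 84 genes in all, of which 80 were tested; none passed limma after adjustment over all genes (adjusted p of at least 0.55). Among all genes tested, 50.8% had a higher mean with EFNA3, 8.53% were higher with no overlap and 7.45% lower with no overlap. The remaining genes of a published transcriptional score of MAPK activity, which also holds 7 of the feedback genes, all had lower means: 0 of 3 were higher, with a median of -0.04. The cyclin D1 gene Ccnd1 differed by -0.04 (SE 0.10) and the Eph receptor genes Epha2 and Epha4 by -0.0052 (SE 0.07) and -0.125 (SE 0.13), and without EFNA3 replicate 1 all 3 were above 0.

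Immediate-early genes are those that ERK switches on within minutes. In a list of immediate-early and delayed-early genes, 13 of 19 had higher means with a median of 0.05. With no overlap 2 were higher and 1 lower, and Fosl1 was too low to test. The stress-inducible gene Ier3 differed by 0.32 (SE 0.11), Klf4 by 0.24 (SE 0.10) and the AP-1 gene Junb by 0.25 (SE 0.12). Egr3, a zinc-finger factor gene, differed by -0.22 (SE 0.07). When EFNA3 replicate 1 was left out, Ier3 stood at 0.19, Junb at 0.14, Klf4 at 0.30 and Egr3 at -0.23, and 12 of 19 were higher with a median of 0.012. Without EFNA3 replicate 3, Junb stood at 0.38 and 10 of 19 were higher with no overlap, and without control replicate 3 it was 5, where 33.8% and 33.3% of all genes had no overlap in either direction. Ier3, Klf4 and Egr3 had an unadjusted limma p under 0.05 with all libraries.

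Other feedback inhibitors had lower means in 8 of 11 with a median of -0.05, and 1, Cbl, was lower with no overlap; Dusp2 was too low to test and Spry3 not in the table. The ubiquitin ligase gene Cbl differed by -0.36 (SE 0.17), Spred2 by -0.28 (SE 0.15), Spred3 by -0.19 (SE 0.14) and the Phlda1 relative Phlda3 by 0.26 (SE 0.12). In the fit without EFNA3 replicate 1, Cbl stood at -0.135, Spred2 at -0.10, Spred3 at -0.11 and Phlda3 at 0.15, and without control replicate 2 Spred3 stood at -0.04. Without EFNA3 replicate 2, 4 were lower with no overlap, where 30.1% of all genes had no overlap in either direction. After the length and GC correction Cbl stood at -0.135 and Phlda3 at 0.16, and 6 of these 11 were lower with a median of -0.02. Phosphatases that act mainly on the stress kinases JNK and p38 differed by 0.08 for Dusp8 (SE 0.12) and Dusp10 (SE 0.14), -0.01 for Dusp16 (SE 0.07) and -0.02 for Dusp1 (SE 0.13). These were 0.17, 0.0087, 0.013 and -0.07 without EFNA3 replicate 1.

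In the Ras-Raf-MEK-ERK cascade, 14 of 20 genes had lower means with a median of -0.03, and 2 were higher and 3 lower with no overlap. An unadjusted limma p under 0.05 was seen in 3 genes, 2 higher and 1 lower, beside 6.73% of all genes. The GTPase gene Hras differed by 0.30 (SE 0.11) and the MEK2 gene Map2k2 by 0.25 (SE 0.105), and both were among these 3. The kinase gene Braf, not among them, differed by -0.31 (SE 0.14, limma unadjusted p = 0.057). Without EFNA3 replicate 1, Hras, Map2k2 and Braf stood at 0.18, 0.15 and -0.125, and 10 of the 20 genes were lower. Without control replicate 3, 4 were higher and 8 lower with no overlap, beside the 33.3% of all genes. After the length and GC correction Hras, Map2k2 and Braf stood at 0.27, 0.19 and -0.11. With that correction 11 of the 20 genes were lower, with a median of -0.009.

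Receptor and docking protein genes had lower means in 9 of 10, with a median of -0.15, and 4 were lower with no overlap; Fgfr4 was too low to test. The neuregulin receptor gene Erbb3 differed by -0.27 (SE 0.11), Fgfr3 by -0.25 (SE 0.11), Fgfr1 by -0.13 (SE 0.07) and the IGF receptor gene Igf1r by -0.15 (SE 0.08). Without EFNA3 replicate 1, Erbb3 stood at -0.13, Fgfr3 at -0.22, Fgfr1 at -0.11 and Igf1r at -0.06, and Fgfr1 stood at -0.08 without control replicate 2. In the first of these fits 9 of 10 were lower with a median of -0.03. Without control replicate 3 there were 7 lower with no overlap, where 33.3% of all genes had no overlap in either direction. After the length and GC correction 4 of 10 were lower with a median of 0.0067. Other ETS factor genes and repressors that ERK relieves had lower means in 8 of 13, a median of -0.07 and 2 higher with no overlap. The ERK-regulated repressor gene Erf differed by 0.11 (SE 0.06), the Capicua gene Cic by -0.18 (SE 0.11), its partner gene Atxn1l by -0.16 (SE 0.09) and the PEA3-family gene Etv1 by -0.31 (SE 0.18). Without EFNA3 replicate 1 these stood at 0.10, -0.06, -0.06 and -0.26, with 7 of 13 higher, 6 lower and a median of 0.012. Without EFNA3 replicate 2, 3 of the 13 were higher and 4 lower with no overlap, where 30.1% of all genes had no overlap in either direction. After the length and GC correction 3 of these 13 were lower and the median was 0.04.

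**Figure D4:**
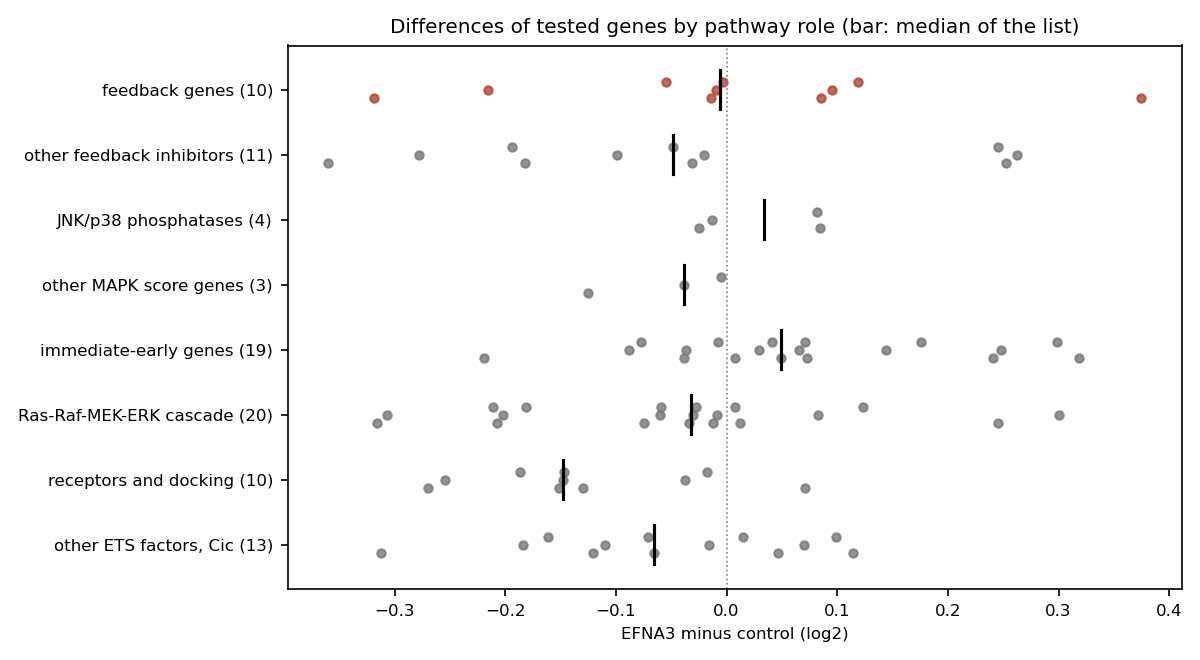
EFNA3 minus control (log2) for each tested gene, grouped by role, with a black bar at the median of each list and the number of genes in brackets. List medians lie between -0.15 for receptors and 0.05 for immediate-early and delayed-early genes, and Etv4 is the highest point of the plot at 0.37.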

How the data were processed

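The table held 1 column per library; a column was matched to its sample through the description label, and the title gave the group. The submitters' processing notes name mm39 as the build and list featureCounts, Subread and Trim Galore as the authors' tools; their versions, the annotation, the strand setting and any prior count were not stated. The deposited values were taken as log2 values, since they ran from -0.79 to 18.1 and were not whole. Once sorted, no value differed between columns by more than 0.00302, so the authors' log2 values share 1 distribution, as after quantile normalization, and the depth per library is unknown.

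Genes that reached 3.32 (a linear value of 10) in 3 or more libraries were tested, 16394 in all. EFNA3 was compared with control by limma 3.58.1 in R 4.3.3, two-sided, with a mean-variance trend, no block and Benjamini-Hochberg adjustment over all tested genes at 0.05. The fit was tested on simulated data, where adjusted limma recovered 31.0% of added differences of 0.5 on the log2 scale and 64.0% of those of 1. Simulated spread was the same in every library of a gene, so the wider departures of EFNA3 replicate 1 were not copied. Transcript length and GC share came from the longest GENCODE transcript on an earlier build, matched by symbol for 97.4% of tested genes, and were removed per library by splines with 5 degrees of freedom. The 10 genes and all lists were chosen with earlier results of these data known. All 10 genes were named; other lists gave up to 4 genes by smallest unadjusted p and any untested gene, short lists all genes, and marker lists their highest gene, of which fibroblast and endothelial genes are given as sums; 1 gene so chosen is not reported here. Alternatives varied the pseudocount, filter, scaling, variance trend, library weights, replicate blocks, length correction and the libraries used.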

Additional observations from a re-analysis of the deposited data

How the results depend on the processing

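Etv4, Dusp4, Etv5 and Dusp6 kept their direction under every setting run, and none of the 10 genes passed limma after adjustment under any. The median over the 10 genes ranged from -0.0061 to 0.0656 with 1 library left out and from -0.0146 to 0.0534 otherwise. These stayed within 1 SD of the EFNA3 libraries from the reported median. That SD, 0.105, rested mostly on EFNA3 replicate 1 and was 0.026 without it. Replicate numbers did not pair the libraries: deviations of libraries with the same title number correlated across genes at -0.105, 0.030 and -0.318, and 1 of 6 libraries correlated best with its own number. A replicate block by the title numbers left 0 genes called. The block by the description numbers, of which the groups share only 2, left 1 residual degree of freedom and called 71 genes, none of them among the 10. Limma called 0 genes under every other setting.

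Some differences changed sign, among them those of Epha4, Igf1r and Atxn1l, at -0.125, -0.148 and -0.161 as reported. With 1 library left out, the differences ranged from -0.0660 to 0.0765 for Dusp5, -0.123 to 0.0583 for Spry1, -0.0725 to 0.0406 for Spry4, -0.0413 to 0.173 for Dusp8, -0.0306 to 0.0129 for Dusp16, -0.0837 to 0.0532 for Dusp1, -0.222 to 0.0417 for Epha4, -0.118 to 0.0372 for Ccnd1 and -0.0457 to 0.0205 for Epha2. With the length and GC correction Spred1 stood at 0.0732, Spry4 at 0.0671, Atxn1l at 0.0143, Dusp16 at 0.0865, Epha2 at 0.00437, Epha4 at 0.0137 and Igf1r at 0.0805. With that correction and EFNA3 replicate 1 left out, a setting chosen after seeing the data, Phlda1 stood at -0.00526, Spry2 at -4.28e-05, Spred1 at 0.0360, Spry4 at 0.0215, Ccnd1 at 0.0498, Dusp16 at 0.0473, Epha2 at 0.0117, Epha4 at 0.0866 and Igf1r at 0.0143. With the replicate block by the descriptions Spry1 stood at 0.0673, Spry4 at 0.0395, Dusp8 at -0.0393 and Epha2 at 0.0206. With library weights Ccnd1 stood at 0.0172, Dusp16 at 0.00728 and Epha4 at 0.00604. The cause was not tested. With 3 libraries a group, the half-width of the interval was between 0.167 and 0.470 for the 10 genes, which limits what could be seen.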
